A study of Homo sapiens with 18 samples.

Results

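The 40 genes described here build and control the actin cytoskeleton, and most of them are known targets of serum response factor (SRF) and its actin-sensing coactivators, the myocardin-related transcription factors MRTFA and MRTFB. They were selected by gene symbol from the 62710 genes of the deposited table, as a fixed list of actins, actin-binding proteins, tropomyosins, myosin II subunits, adhesion-linked LIM proteins and the transcription factors themselves. All 40 were present once in the table, and 38 had enough reads to be tested. ACTG2, the smooth-muscle gamma-actin, was not tested, with 43 estimated reads over 15 libraries and at most 7 in a single library. CNN1, the smooth-muscle calponin, was not tested either, with 4 estimated reads over 4 libraries.

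Actin filaments grow from monomers, are crosslinked by filamins and alpha-actinins, are coated by tropomyosins and calponins, and are pulled by non-muscle myosin II once its regulatory light chain is phosphorylated. MRTFA and MRTFB bind free actin monomers and are held out of the nucleus by them. When monomers are used up by filament assembly, which formins promote, the MRTFs enter the nucleus and bind SRF, which sits on a DNA element called the CArG box. SRF has a separate class of partners, the ternary complex factors (TCFs), through which growth factor and ERK signals switch on immediate-early genes such as FOS and EGR1. In breast cancer cells actin assembly and myosin contraction drive movement through collagen, and MMP14 is a membrane-bound protease that cleaves fibrillar collagen at the cell surface.

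RNA came from spheroids of MDA-MB-231, a human triple-negative breast cancer cell line grown from a pleural effusion, sequenced as bulk libraries in 6 groups of 3. The groups were MMP14-KO spheroids after 5 days in hanging droplets, MMP14-KO spheroids after a further 24 h or 48 h in collagen hydrogel, and Wildtype spheroids at the same 3 stages. Whether the MMP14-KO population was cloned or pooled is not in the labels, so loss of MMP14 and other differences from the Wildtype population cannot be told apart. The labels also do not say that replicates came from separate cultures, so p-values measure only the spread between these libraries, which may be technical. Spheroids in collagen differed from those in droplets in matrix, culture time and handling together, since gels were digested with collagenase at 2 mg/ml and 37 °C before lysis and droplet spheroids were not.

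Libraries held between 19819401 and 33352163 estimated reads, and the 40 genes together took between 1.64% and 2.22% of them as group means. MMP14 was present at 159, 149 and 156 CPM (reads per 1e6 reads of a library after TMM scaling) in MMP14-KO droplets, against 1956, 1928 and 2249.7 CPM in Wildtype droplets, and remained lower in all MMP14-KO libraries in collagen, with log2 fold changes of -3.73, -3.57 and -3.29 in droplets, at 24 h and at 48 h. The mitochondrial share of reads was 0.971% to 1.74% in MMP14-KO droplets, against 2.1% to 2.65% in Wildtype droplets, and 2.34% to 4.18% over all libraries in collagen. Of the genes that mark this line, the vimentin gene VIM had group means between 2057 and 3737 CPM, CD44 of 588 to 926 CPM and EGFR of 289 to 473 CPM. The receptor gene ERBB2 was present, with group means of 66.7 to 77.0 CPM, while the hormone receptor genes ESR1 and PGR were at most 0.31 and 0.21 CPM. The other luminal epithelial markers were divided. KRT8 had group means of 457 to 524 CPM and KRT18 of 313 to 354 CPM, whereas GATA3 had 7.54 to 10.2 CPM, EPCAM 4.45 to 10.0 CPM and CDH1 0.339 to 0.597 CPM. Among leukocyte markers CD3E was at 0 in all 18 libraries while CD68 had group means of up to 114 CPM and LYZ of 2.31 to 13.0 CPM, and the endothelial marker PECAM1 had 12.3 to 33.7 CPM. The smooth-muscle regulator MYOCD was at 0 in all 18 libraries, and MYH11 and DES, which define differentiated muscle, stayed at or under 0.47 CPM.

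CArG boxes were searched on both strands of the promoters of these genes, from 250 bases before to 50 bases after each RefSeq start (GRCh38.p14), because this is the element SRF binds. Only exact 10-base matches were counted, with CC, then only A or T bases, then GG, so looser boxes and other starts were missed. The promoter table held 37 of the 40 genes, and 8 of them (21.6%) had at least 1 box, with 1 entry used per gene. Over the whole table, counted by entry and not by gene, 454 of 35116 promoters (1.29%) had a box. The promoter table had no entry for ACTB, TAGLN or MYL9, whose promoters were therefore not searched. The genes had in part been chosen as known SRF targets, so this share is a description and not independent evidence. Promoter stretches of the 7 tested genes with a box are shown because their transcript levels are followed below, with the box in capitals.
SRF: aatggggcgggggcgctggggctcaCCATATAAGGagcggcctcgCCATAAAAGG
ACTG1: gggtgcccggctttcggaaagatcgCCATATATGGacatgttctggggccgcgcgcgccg
FLNA: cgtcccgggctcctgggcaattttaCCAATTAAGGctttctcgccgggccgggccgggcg
CNN2: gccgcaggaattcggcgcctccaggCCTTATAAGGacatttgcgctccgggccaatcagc
TPM4: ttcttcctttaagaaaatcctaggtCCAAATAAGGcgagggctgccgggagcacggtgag
MYLK: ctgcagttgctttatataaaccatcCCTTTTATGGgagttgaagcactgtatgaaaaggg
FHL2: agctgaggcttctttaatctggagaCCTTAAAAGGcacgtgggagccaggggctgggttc
Their regions are chr6:43171214-43171268 (plus strand) for SRF, chr17:81512859-81512918 (minus strand) for ACTG1, chrX:154374694-154374753 (minus strand) for FLNA, chr19:1026494-1026553 (plus strand) for CNN2, chr19:16067340-16067399 (plus strand) for TPM4, chr3:123620608-123620667 (minus strand) for MYLK and chr2:105438580-105438639 (minus strand) for FHL2. SRF's own promoter carries 2 boxes, and ACTG2 was the other gene with a match. A match marks the letters only, and no binding was measured here.

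Compared per kilobase of exon, TMSB10, which encodes a thymosin that sequesters actin monomers, was the most abundant of the 40 genes in every group, at 1590 to 2069 CPM per kb. The cytoplasmic actins followed. ACTB, the beta-actin gene, averaged 683, 1023 and 1129 CPM per kb in MMP14-KO droplets, at 24 h and at 48 h, and 788, 1185 and 1356 CPM per kb in Wildtype spheroids at the same stages. ACTG1, the gamma-actin gene, averaged 699, 746 and 839.7 CPM per kb in MMP14-KO and 717, 771 and 886 CPM per kb in Wildtype spheroids. The order of the actins therefore depended on the stage, since in MMP14-KO droplets their levels overlapped within the replicate spread, and in Wildtype droplets and all 4 collagen groups ACTB lay above ACTG1. The coefficient of variation between replicates had a median over the tested genes of 3.07% to 5.82% across the 6 groups. It was largest for ACTA2 in MMP14-KO droplets (22.2%), at 24 h (26.7%) and at 48 h (17.2%). In Wildtype spheroids the largest were FHL1 in droplets (29.1%), TAGLN at 24 h (20.7%) and FLNC at 48 h (12.6%).

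The first comparison asks how these genes stood after 24 h in collagen, relative to droplets. In both genotypes most of the actin-network genes were higher in collagen. FLNC, a filamin, rose about 4-fold, the smooth-muscle-type protein TAGLN about 3-fold, and the actin-bundling LIMA1 and the tropomyosins TPM1 and TPM2 about 2-fold, while the transcription factor MRTFB, the thymosin TMSB10, the light chain MYL12A and the smooth-muscle actin ACTA2 fell. In MMP14-KO spheroids 24 of the 38 tested genes were higher and 5 lower at 24 h, where 51.1% of all 17030 genes tested were called (25.5% higher and 25.7% lower). In Wildtype spheroids 24 were higher and 5 lower, where 56.5% of all genes were called (27.8% higher and 28.7% lower). These comparisons share no library, and 23 of the 24 higher genes in each genotype and 4 of the 5 lower ones were called the same way in the other. The same overlap over all tested genes was not counted, so it does not set the 38 genes apart. The median log2 fold change over the 38 genes was 0.22 in MMP14-KO and 0.36 in Wildtype spheroids, against 0.00 over all genes in both. Calls were made with edgeR's quasi-likelihood test at a Benjamini-Hochberg adjusted p under 0.05, adjusted over all genes in each comparison. In bulk RNA, fewer cells with a transcript and less transcript per cell cannot be told apart, and matrix, time and digestion cannot be told apart in this comparison.

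**Figure D1:**
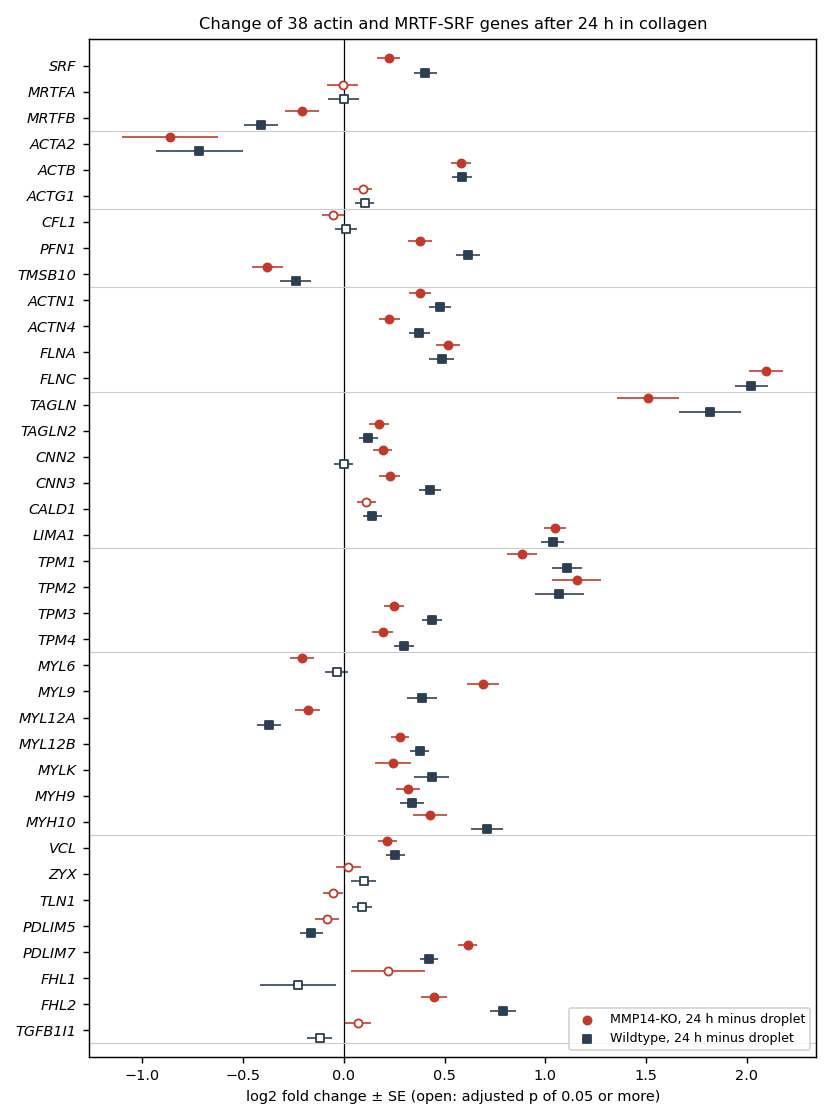
Log2 fold change at 24 h in collagen over droplets for each of the 38 tested actin and MRTF-SRF genes, with MMP14-KO and Wildtype spheroids as separate series. Points are edgeR estimates, bars are ± 1 SE, and open points did not reach an adjusted p under 0.05. FLNC, TAGLN, TPM2, LIMA1 and TPM1 lie farthest to the right in both genotypes, and ACTA2 lies farthest to the left.

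Among the regulators, SRF itself had 100.2, 94.2 and 104 CPM in MMP14-KO droplets, 119, 109.5 and 120.0 CPM at 24 h and 123, 110.0 and 127 CPM at 48 h. Wildtype libraries had 114, 110.2 and 117 CPM of SRF in droplets, 145, 156 and 150.3 CPM at 24 h and 144, 152 and 155 CPM at 48 h. All collagen libraries lay above the droplet libraries of their genotype. SRF rose at 24 h by 1.17-fold in MMP14-KO and 1.32-fold in Wildtype spheroids (adjusted p 0.00267 and 2.68e-06, edgeR's quasi-likelihood test). MRTFA, the better-studied coactivator, was at 23.9, 26.8 and 24.6 CPM in MMP14-KO droplets, 24.7, 23.6 and 26.8 CPM at 24 h and 28.98, 26.0 and 27.7 CPM at 48 h. In Wildtype spheroids MRTFA was at 28.0, 30.1 and 24.1 CPM in droplets, 28.1, 26.7 and 27.4 CPM at 24 h and 26.7, 27.4 and 27.1 CPM at 48 h. The groups overlapped, and no comparison called MRTFA. MRTFB, its paralogue, was at 29.5, 30.7 and 28.5 CPM in MMP14-KO droplets, 26.4, 25.7 and 24.8 CPM at 24 h and 20.6, 26.1 and 28.5 CPM at 48 h. Wildtype spheroids had 32.6, 28.9 and 31.1 CPM of MRTFB in droplets, 22.9, 22.4 and 24.1 CPM at 24 h and 22.3, 23.3 and 22.9 CPM at 48 h. Collagen libraries lay below droplet libraries in Wildtype spheroids at both times and in MMP14-KO spheroids at 24 h, and MMP14-KO libraries at 48 h overlapped the droplets. MRTFB fell at 24 h in both genotypes, with log2 fold changes of -0.21 in MMP14-KO and -0.41 in Wildtype spheroids. Only the Wildtype call held without every library in turn, since the MMP14-KO call at 24 h was lost without any of its 6 libraries (adjusted p 0.0507 to 0.131, edgeR) and that at 48 h was lost without MMP14-KO droplet replicate 2 or MMP14-KO 48 h replicate 1 (adjusted p 0.0627 and 0.216).

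The actin genes did not all move the same way. ACTB had 2395, 2278 and 2539 CPM in MMP14-KO droplets, 3655, 3466 and 3674 CPM at 24 h and 4058, 3828 and 4033 CPM at 48 h. In Wildtype spheroids ACTB had 2803, 2701 and 2809.5 CPM in droplets, 4117, 4082 and 4308 CPM at 24 h and 4741, 4772 and 4801 CPM at 48 h. Every collagen library exceeded every droplet library, and ACTB rose at 24 h by 1.5-fold in MMP14-KO and 1.5-fold in Wildtype spheroids. ACTG1, with 2092 ± 67.3, 2234 ± 68.0 and 2513 ± 73.5 CPM over the 3 MMP14-KO stages (SD, n = 3 each), was not called at 24 h in either genotype, at log2 fold changes of 0.09 in MMP14-KO and 0.10 in Wildtype spheroids. It passed the test at 48 h over droplets in both, at 0.26 in MMP14-KO and 0.31 in Wildtype spheroids. ACTA2, at 1.90 ± 0.422 CPM in MMP14-KO droplets and 2.84 ± 0.638 CPM in Wildtype droplets, was scarce, and it fell at 24 h by 0.86 in MMP14-KO and by 0.72 in Wildtype spheroids on the log2 scale. The Wildtype call for ACTA2 was lost without Wildtype droplet replicate 3 (log2 fold change -0.51, adjusted p 0.074, edgeR). Exons of ACTA2 overlap genes on the opposite strand over 30.1% of their length, including FAS, and whether the counting used strand is not given in the sources used here. FAS fell as well, at log2 fold changes of -0.34 in MMP14-KO and -0.42 in Wildtype spheroids at 24 h, and its part in the ACTA2 result was not tested.

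Of the genes that handle monomers and ends, PFN1, the profilin that feeds monomers to growing filaments, had 516, 535 and 516 CPM in MMP14-KO droplets, 716, 656 and 662 CPM at 24 h and 818, 708 and 728 CPM at 48 h. Wildtype libraries had 556, 568 and 548 CPM of PFN1 in droplets, 792, 889 and 881 CPM at 24 h and 832, 898 and 924 CPM at 48 h. Droplet and collagen libraries did not overlap within either genotype, and PFN1 rose at 24 h by 1.3-fold in MMP14-KO and 1.53-fold in Wildtype spheroids. TMSB10 went the other way, with 789 ± 50.5 CPM at 24 h against 1026 ± 67.2 CPM in droplets of MMP14-KO cells, and 797 ± 34.1 CPM at 24 h against 941 ± 75.7 CPM in droplets of Wildtype cells. It fell in both, and the Wildtype call was lost without Wildtype droplet replicate 3 (log2 fold change -0.18, adjusted p 0.0699, edgeR). CFL1, the filament-severing cofilin, was not called at 24 h, at log2 fold changes of -0.06 in MMP14-KO and 0.01 in Wildtype spheroids.

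All 4 crosslinkers were higher in collagen in both genotypes and at both times, where 25.5% to 27.8% of all genes were higher. FLNC, the filamin of muscle that other cells can also make, gave the largest change of the 38 genes. It was at 40.3, 43.6 and 39.1 CPM in MMP14-KO droplets, 172, 176 and 179 CPM at 24 h and 159, 159.8 and 192 CPM at 48 h. Wildtype libraries had 61.3, 58.6 and 55.2 CPM of FLNC in droplets, 223, 249 and 239.8 CPM at 24 h and 206, 220.2 and 262 CPM at 48 h. Even the lowest collagen library lay above the highest droplet library, and the genotypes kept apart at each stage. The log2 fold change of FLNC at 24 h was 2.1 ± 0.0854 in MMP14-KO and 2.02 ± 0.0840 in Wildtype spheroids (SE, adjusted p 3.21e-13 and 2.10e-13, edgeR). Its far more abundant paralogue FLNA, the general filamin, rose by 1.43-fold in MMP14-KO and 1.40-fold in Wildtype spheroids, and the alpha-actinins ACTN1 and ACTN4 rose by 1.3-fold and 1.17-fold in MMP14-KO and by 1.39-fold and 1.3-fold in Wildtype spheroids.

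In the calponin family and other filament binders, 5 of 6 tested genes were higher at 24 h in each genotype. Of all genes 25.5% were higher in MMP14-KO and 27.8% in Wildtype spheroids. TAGLN (transgelin, or SM22), a classical SRF target of smooth muscle, was at 2.3, 2.35 and 2.39 CPM in MMP14-KO droplets, 7.23, 6.43 and 6.44 CPM at 24 h and 3.55, 3.71 and 3.52 CPM at 48 h. In Wildtype spheroids TAGLN was at 2.80, 2.11 and 2.3 CPM in droplets, 6.43, 9.70 and 9.09 CPM at 24 h and 3.13, 3.72 and 3.76 CPM at 48 h. The 24 h libraries were the highest of the 3 stages in both genotypes, with no overlap with droplets, and the 48 h libraries lay between. TAGLN's log2 fold change at 24 h over droplets was 1.51 ± 0.154 in MMP14-KO and 1.82 ± 0.153 in Wildtype spheroids (SE). Exons of TAGLN overlap PCSK7 on the opposite strand over 446 bases, 11.4% of their length, and PCSK7 was itself higher at 24 h, at log2 fold changes of 0.80 in MMP14-KO and 0.75 in Wildtype spheroids, so without strand the reads of this stretch could belong to either gene. LIMA1, which bundles filaments and slows their disassembly, had 96.2, 92.9 and 93.4 CPM in MMP14-KO droplets, 192, 186 and 206 CPM at 24 h and 196, 215 and 227 CPM at 48 h. Wildtype libraries had 102, 101 and 96.6 CPM of LIMA1 in droplets, 203, 206 and 206 CPM at 24 h and 244, 245 and 267 CPM at 48 h. Collagen and droplet libraries did not overlap, and the fold at 24 h was 2.07 in MMP14-KO and 2.05 in Wildtype spheroids. The transgelin paralogue TAGLN2 had a log2 fold change of 0.17 in MMP14-KO and 0.12 in Wildtype spheroids, where its call was lost without Wildtype droplet replicate 2 or any Wildtype 24 h library (adjusted p 0.0658 to 0.130, edgeR). CNN2, a calponin, was higher in MMP14-KO spheroids at 0.19 and had a log2 fold change of 0.00 in Wildtype spheroids, a difference of 0.19 ± 0.0676 that was not called (SE, adjusted p 0.0837, edgeR) but was called in 4 of the 7 other settings (adjusted p over the 7 from 0.0312 to 0.292). CNN3 had 0.23 in MMP14-KO and 0.43 in Wildtype spheroids.

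All 4 tropomyosins, the coiled-coil proteins that line actin filaments and set which motors and crosslinkers bind, were higher in all 4 comparisons of collagen with droplets. Of all genes 25.5% to 27.8% were higher in these comparisons. TPM2 had 14.2, 11.6 and 15.1 CPM in MMP14-KO droplets, 29.7, 31.1 and 30.4 CPM at 24 h and 29.4, 30.1 and 28.9 CPM at 48 h. In Wildtype spheroids TPM2 had 15.5, 14.2 and 10.4 CPM in droplets, 27.4, 31.4 and 25.0 CPM at 24 h and 20.9, 17.3 and 21.9 CPM at 48 h. No collagen library fell within the droplet range, and the 24 h fold was 2.23 in MMP14-KO and 2.1 in Wildtype spheroids. TPM1 had 48.8, 48.1 and 52.4 CPM in MMP14-KO droplets, 86.4, 90.7 and 98.7 CPM at 24 h and 96.2, 95.5 and 93.3 CPM at 48 h. Wildtype libraries had 46.1, 47.3 and 49.0 CPM of TPM1 in droplets, 99.2, 93.9 and 114 CPM at 24 h and 88.3, 101 and 109 CPM at 48 h. Its groups were as cleanly separated, at 1.85-fold in MMP14-KO and 2.16-fold in Wildtype spheroids, and TPM1-AS, one of the opposite-strand genes that overlap 21.4% of its exon length, stayed under 0.5 CPM in every library. TPM4 and TPM3, the broadly expressed forms, changed least, with 24 h log2 fold changes of 0.19 and 0.25 in MMP14-KO and of 0.30 and 0.44 in Wildtype spheroids.

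**Figure D2:**
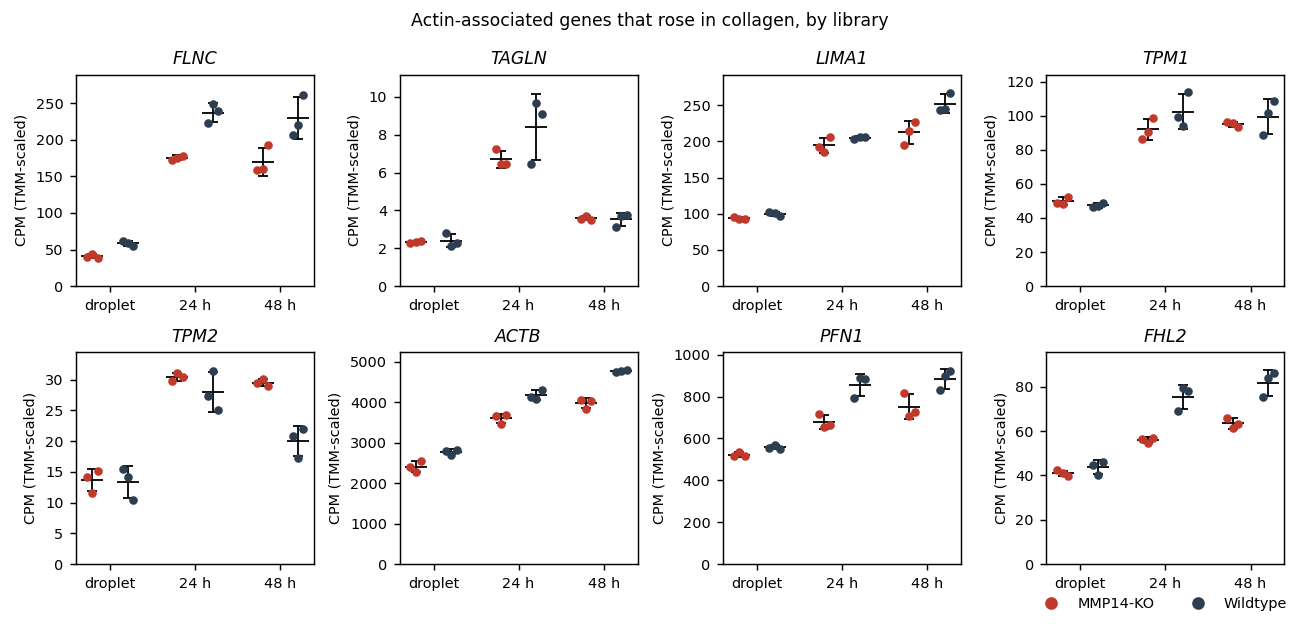
CPM in each library for FLNC, TAGLN, LIMA1, TPM1, TPM2, ACTB, PFN1 and FHL2 at the 3 stages, with MMP14-KO left of Wildtype. Points are libraries and bars are the mean ± SD of 3. In each panel the collagen libraries lie above the droplet libraries of the same genotype, and for TAGLN the 48 h libraries lie below those of 24 h.

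Myosin II genes split by subunit. The heavy chains MYH9 and MYH10, which encode the motors of non-muscle myosin IIA and IIB, were higher at 24 h, at 1.25-fold and 1.35-fold in MMP14-KO and 1.26-fold and 1.64-fold in Wildtype spheroids. Of the regulatory light chains, MYL9 rose by 1.61-fold in MMP14-KO and 1.31-fold in Wildtype spheroids and MYL12B by 1.22-fold in MMP14-KO and 1.3-fold in Wildtype spheroids, whereas MYL12A fell by 0.18 in MMP14-KO and by 0.37 in Wildtype spheroids on the log2 scale. MYLK, the kinase that phosphorylates these light chains, passed the test in both genotypes at 24 h, at 0.24 in MMP14-KO and 0.44 in Wildtype spheroids. The MMP14-KO call for MYLK was lost without MMP14-KO droplet replicate 1 or 2 or any of the MMP14-KO 24 h libraries (adjusted p 0.0549 to 0.158, edgeR), and that for MYL12A without MMP14-KO droplet replicate 2 or MMP14-KO 24 h replicate 3 (0.0685 and 0.0727). MYL6, the essential light chain, was lower in MMP14-KO spheroids at -0.21 and was not called in Wildtype spheroids at -0.04, and the difference between the genotypes in this effect had an adjusted p of 0.215 (edgeR).

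Of 8 adhesion-linked genes 3 were higher in each genotype at 24 h and, in Wildtype spheroids, 1 was lower, so that 37.5% in MMP14-KO and 50% in Wildtype spheroids were called, below the 51.1% and 56.5% of all genes. FHL2, a LIM protein that binds integrins and can be an MRTF-SRF target, had 42.3, 40.9 and 39.9 CPM in MMP14-KO droplets, 56.6, 54.5 and 56.9 CPM at 24 h and 65.9, 61.3 and 63.1 CPM at 48 h. Wildtype libraries had 44.6, 40.3 and 46.3 CPM of FHL2 in droplets, 69.3, 79.3 and 77.9 CPM at 24 h and 75.2, 84.1 and 86.3 CPM at 48 h. Droplet libraries of both genotypes overlapped each other, and in collagen the Wildtype libraries were the higher ones. PDLIM7 and VCL, a LIM-domain scaffold and the vinculin that ties talin to actin, also rose at 24 h, at log2 fold changes of 0.61 and 0.21 in MMP14-KO and 0.42 and 0.26 in Wildtype spheroids. The zyxin gene ZYX, the talin gene TLN1 and FHL1 were not called in either genotype at 24 h, with log2 fold changes between -0.05 and 0.22 in MMP14-KO and between -0.23 and 0.10 in Wildtype spheroids.

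At 48 h over droplets the counts were similar, with 25 higher and 4 lower in MMP14-KO spheroids (49.4% of all genes called, 25.8% higher and 23.6% lower) and 25 higher and 3 lower in Wildtype spheroids (55.2% called, 27.7% higher and 27.5% lower). Of the 25 higher genes in each genotype 23 were shared, and the overlap over all genes was again not counted. Of the 4 lower in MMP14-KO and the 3 lower in Wildtype spheroids, MRTFB and the LIM-domain scaffold gene PDLIM5 were lower in both. The FLNC log2 fold change was 2.05 in MMP14-KO and 1.98 in Wildtype spheroids, while that of TAGLN was 0.61 in MMP14-KO and 0.56 in Wildtype spheroids. Leaving out a library ended few of these calls. MYH10 was lost in MMP14-KO spheroids without MMP14-KO 48 h replicate 3 (log2 fold change 0.17, adjusted p 0.0892, edgeR), and MYL9 was lost in Wildtype spheroids without Wildtype droplet replicate 3 (log2 fold change 0.20, adjusted p 0.0504).

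Between 24 h and 48 h few of the 38 genes changed. TAGLN fell in both genotypes and ACTG1 rose in both. In MMP14-KO spheroids these were the only calls, 1 higher and 1 lower, where 3.81% of all genes were called (2.07% higher and 1.73% lower). In Wildtype spheroids 5 genes were higher (ACTA2, ACTB, ACTG1, LIMA1 and TPM4) and 2 lower (TAGLN and TPM2), where 13.2% of all genes were called (6.32% higher and 6.88% lower). TAGLN's log2 fold change at 48 h over 24 h was -0.90 ± 0.151 in MMP14-KO and -1.25 ± 0.147 in Wildtype spheroids (SE, adjusted p 0.000934 and 5.99e-06, edgeR). PCSK7, which overlaps TAGLN on the opposite strand, also fell in Wildtype spheroids (log2 fold change -0.41, adjusted p 0.00141, edgeR). In MMP14-KO spheroids PCSK7 was not called, at -0.15, and its part in the fall of TAGLN was not tested. TPM2 fell in Wildtype spheroids by 0.48 on the log2 scale and had a log2 fold change of -0.04 in MMP14-KO spheroids. The other genes of the set that had risen at 24 h had second-day log2 fold changes between -0.18 and 0.30 in both genotypes, both ends being Wildtype values, of MYH10 and LIMA1. Without each library in turn and in the 7 other settings, TAGLN held in both genotypes and ACTG1 and LIMA1 held in Wildtype spheroids. The ACTG1 call in MMP14-KO spheroids was lost without any of its 6 libraries (adjusted p 0.0771 to 0.202, edgeR), TPM2 and TPM4 in Wildtype spheroids were lost without Wildtype 24 h or 48 h replicate 2 (adjusted p 0.0527 to 0.0836), ACTB was lost without Wildtype 24 h replicate 2 (0.0635), and ACTA2 was lost without any of the 6 libraries (0.0553 to 0.148).

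**Figure D3:**
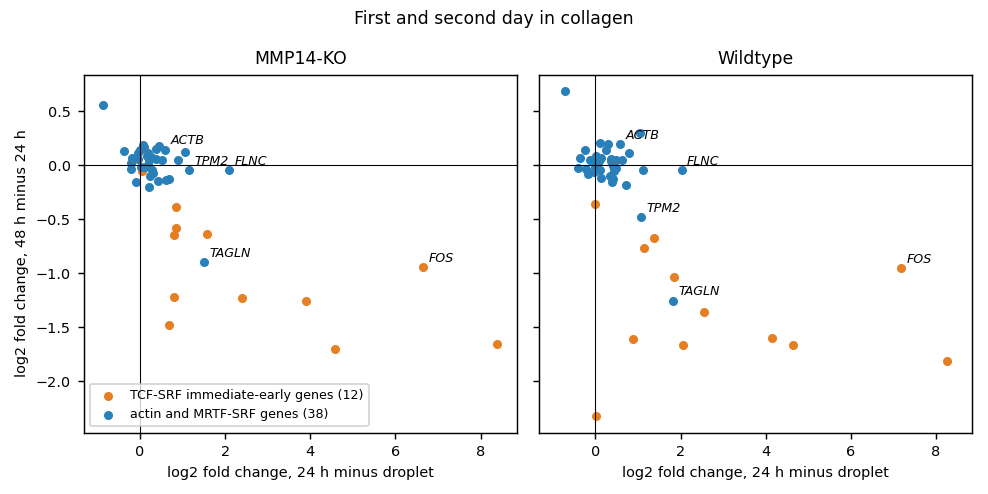
Log2 fold change from droplet to 24 h in collagen on the horizontal axis and from 24 h to 48 h on the vertical axis, for the 38 tested actin and MRTF-SRF genes and 12 immediate-early genes that SRF controls through TCFs, with MMP14-KO and Wildtype spheroids in separate panels. Points are edgeR estimates. Both axes use the 24 h libraries, so the estimates of one gene are not independent. Most actin and MRTF-SRF genes lie near 0 on the vertical axis with TAGLN below it, while most of the immediate-early genes lie to the right and below it.

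The second comparison asks what differed between MMP14-KO and Wildtype spheroids at the same stage. The difference fell mostly in one direction, with lower transcript levels in MMP14-KO spheroids of SRF, beta-actin, the filamin FLNC, alpha-actinin, calponin and most of the myosin II genes. In droplets none of the 38 genes was higher and 13 were lower in MMP14-KO, where 17.4% of all genes were called (7.7% higher and 9.7% lower), and this count was 7 without MMP14-KO droplet replicate 1 or without Wildtype droplet replicate 1. At 24 h 1 gene was higher and 19 lower, where 29.4% of all genes were called (13.7% higher and 15.7% lower). At 48 h 2 genes were higher and 19 lower, where 29.5% of all genes were called (14.4% higher and 15.1% lower). Higher calls made up 46.5% of all calls at 24 h and 48.9% at 48 h, or 61.9% and 64.3% when libraries were scaled by total size alone, and no called gene of the 38 turned its direction under that scaling. The 3 stages share no library, and ACTB, ACTN1, CNN2, FLNC, MYH10, MYH9, MYL9, MYLK and SRF, 9 genes of the 13, 19 and 19 called lower, were lower at all 3. How many of all tested genes were called lower at all 3 stages was not counted, so this number does not set the 38 genes apart. The median log2 fold change over the 38 genes was -0.08 in droplets, -0.16 at 24 h and -0.13 at 48 h, against 0.00 at each stage over all genes. Averaged over the stages 3 genes were higher (FHL1, TPM2 and ZYX) and 24 lower, where 44.2% of all genes were called. The ZYX call, at 0.09, was lost without MMP14-KO droplet replicate 1 or 2, 24 h replicate 1 or 48 h replicate 1, and without Wildtype droplet replicate 2 or 3, 24 h replicate 2 or 3 or 48 h replicate 1 or 3 (adjusted p 0.0510 to 0.0905, edgeR). The mitochondrial share of reads, given above, was also lower in MMP14-KO than in Wildtype droplets, and its part in the droplet differences was not tested.

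**Figure D4:**
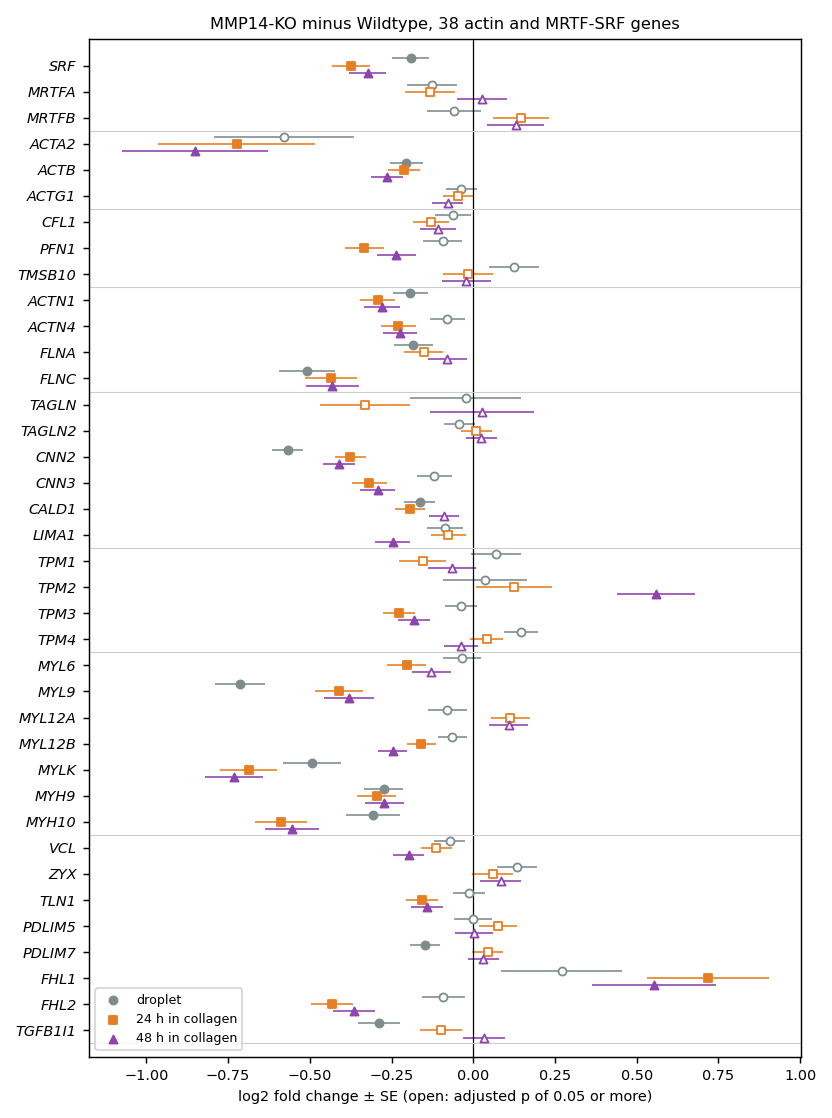
Log2 fold change of MMP14-KO over Wildtype spheroids for each of the 38 tested actin and MRTF-SRF genes, with droplets, 24 h and 48 h in collagen as separate series. Points are edgeR estimates, bars are ± 1 SE, and open points did not reach an adjusted p under 0.05. MYL9, MYLK, FLNC, CNN2, MYH10 and ACTA2 lie well left of 0, and FHL1 and, at 48 h, TPM2 lie right of it.

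The libraries of SRF listed above did not overlap between the genotypes at any stage. SRF was lower in MMP14-KO by 1.14-fold in droplets, 1.3-fold at 24 h and 1.25-fold at 48 h (adjusted p 0.0228, 4.81e-05 and 0.000240, edgeR's quasi-likelihood test). The droplet call was lost without MMP14-KO droplet replicate 1 or 2 or Wildtype droplet replicate 1 or 3 (adjusted p 0.0682 to 0.146), and the calls in collagen held without each library. MRTFA and MRTFB were not called at any stage, with log2 fold changes of -0.13, -0.13 and 0.03 for MRTFA and -0.06, 0.15 and 0.13 for MRTFB. Of the cytoplasmic actin genes ACTB was lower in MMP14-KO at all 3 stages, at -0.20, -0.21 and -0.26, while ACTG1 was not called at -0.04, -0.05 and -0.08. Without MMP14-KO droplet replicate 2 the droplet call for ACTB was lost (log2 fold change -0.16, adjusted p 0.0579).

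Of the 7 genes of myosin II and its kinase, 4 were lower in MMP14-KO in droplets, 6 at 24 h and 5 at 48 h. Of all genes 9.7%, 15.7% and 15.1% were lower at these stages. MYL9, the light chain of smooth-muscle type that non-muscle cells also use, was at 43.7, 46.2 and 42.4 CPM in MMP14-KO droplets, against 77.5, 71.7 and 68.1 CPM in Wildtype droplets. At 24 h it was at 77.9, 65.8 and 70.2 CPM in MMP14-KO and 88.8, 97.3 and 98.0 CPM in Wildtype spheroids, and at 48 h at 70.3, 56.4 and 69.5 CPM in MMP14-KO and 86.2, 86.5 and 82.8 CPM in Wildtype spheroids. The genotypes did not overlap at any stage. Its log2 fold changes were -0.71 ± 0.0769 in droplets, -0.41 ± 0.0749 at 24 h and -0.38 ± 0.0758 at 48 h (SE, n = 3 each). The gaps in collagen differed from that in droplets by 0.30 at 24 h and 0.33 at 48 h, which was not called (adjusted p 0.0844 and 0.0639, edgeR). This difference was called in some other settings, such as no filter on low counts (adjusted p 0.0277 and 0.0195, edgeR). MYLK, one of the least abundant of the tested genes per kilobase, had 14.8, 14.2 and 17.6 CPM in MMP14-KO droplets, against 20.6, 21.1 and 23.9 CPM in Wildtype droplets. It had 18.5, 18.01 and 18.7 CPM in MMP14-KO and 27.7, 30.0 and 31.1 CPM in Wildtype spheroids at 24 h, and 15.1, 18.3 and 18.3 CPM in MMP14-KO and 29.2, 27.1 and 29.4 CPM in Wildtype spheroids at 48 h. Every MMP14-KO library lay below the Wildtype libraries of its stage, at 1.41-fold, 1.61-fold and 1.66-fold lower.

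The heavy chain gene MYH10 had 50.3, 49.7 and 51.7 CPM in MMP14-KO droplets, against 67.2, 59.9 and 60.5 CPM in Wildtype droplets. At 24 h MYH10 had 62.8, 72.9 and 68.2 CPM in MMP14-KO and 91.1, 105 and 111 CPM in Wildtype spheroids, and at 48 h 57.3, 58.0 and 69.4 CPM in MMP14-KO and 83.3, 90.8 and 97.1 CPM in Wildtype spheroids. The genotypes did not overlap at any stage, with log2 fold changes of -0.31 in droplets, -0.59 at 24 h and -0.56 at 48 h. A difference between these gaps and that in droplets was not called, with an adjusted p of 0.136 at 24 h and 0.191 at 48 h (edgeR). The droplet call for MYH10 was lost without MMP14-KO droplet replicate 1 or 2 or Wildtype droplet replicate 1 (adjusted p 0.0503 to 0.0831). MYH9, the more abundant heavy chain gene in these cells per kilobase, was lower by nearly the same amount throughout, at -0.27, -0.30 and -0.27, in calls that held without each library. MYL12A was the only gene of the 7 not called at any stage, at -0.08, 0.11 and 0.11.

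**Figure D5:**
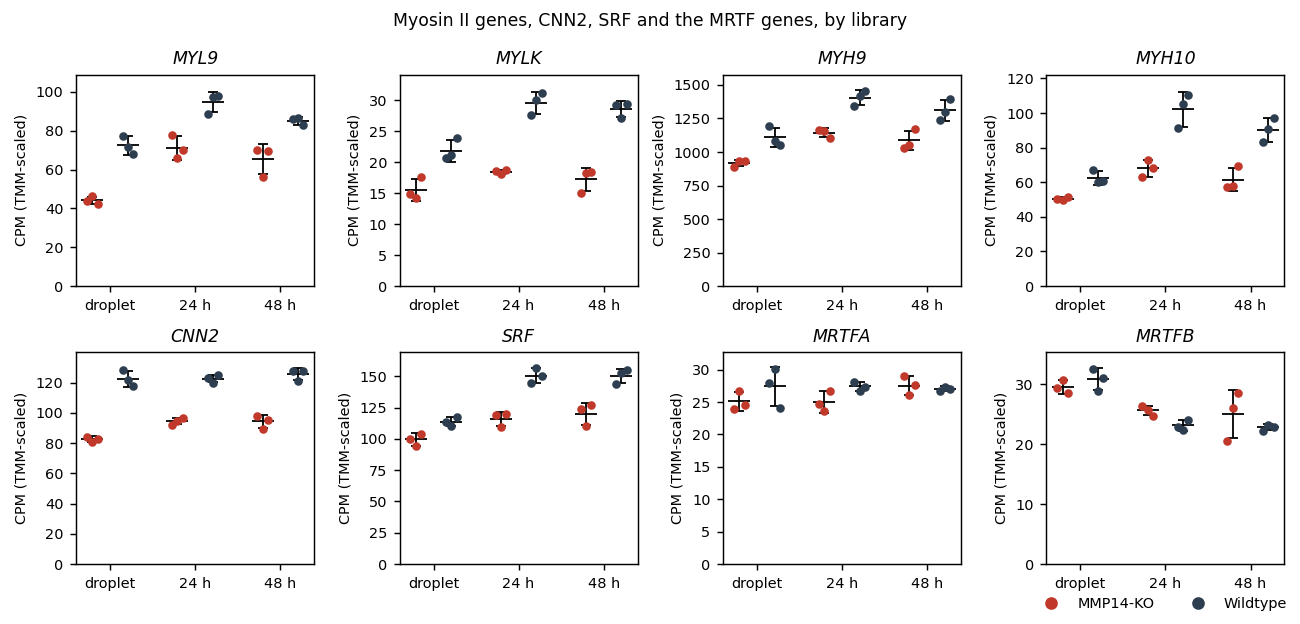
CPM in each library for MYL9, MYLK, MYH9, MYH10, CNN2, SRF, MRTFA and MRTFB at the 3 stages, with MMP14-KO left of Wildtype. Points are libraries and bars are the mean ± SD of 3. The MMP14-KO libraries lie below the Wildtype libraries at every stage in all panels but those of MRTFA and MRTFB.

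CNN2, a calponin of non-muscle cells, was at 84.2, 80.8 and 83.0 CPM in MMP14-KO droplets, against 128, 122 and 118 CPM in Wildtype droplets. At 24 h CNN2 was at 92.3, 94.5 and 96.4 CPM in MMP14-KO and 123, 120.0 and 125 CPM in Wildtype spheroids, and at 48 h at 98.2, 89.6 and 95.6 CPM in MMP14-KO and 128, 121 and 128 CPM in Wildtype spheroids. There was no overlap at any stage, and CNN2 was 1.48-fold, 1.3-fold and 1.33-fold lower in MMP14-KO. Its paralogue CNN3 was not called in droplets at -0.12 and was lower at 24 h at -0.32 and at 48 h at -0.29. TAGLN was not called at any stage, at -0.02, -0.33 and 0.03, although without Wildtype 24 h replicate 1 it was lower at 24 h (log2 fold change -0.48, adjusted p 0.00861, edgeR). Of the crosslinkers FLNC had log2 fold changes of -0.51 in droplets, -0.43 at 24 h and -0.43 at 48 h, and all its libraries, given above, were lower in MMP14-KO at each stage. The other filamin, FLNA, was called lower in droplets at -0.18 and was not called at 24 h at -0.15 or at 48 h at -0.08.

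None of the 4 tropomyosins was called in droplets, and TPM3 was lower at 24 h and 48 h, at -0.23 and -0.18, the second of which was lost when only the 6 libraries of that stage were fitted (adjusted p 0.0577, edgeR). TPM2 was the one tropomyosin gene that was higher, at 48 h, where its libraries held 29.4, 30.1 and 28.9 CPM in MMP14-KO and 20.9, 17.3 and 21.9 CPM in Wildtype spheroids and did not overlap (log2 fold change 0.56, adjusted p 0.00172, edgeR). FHL1, a LIM protein of muscle and other tissues, was higher at 24 h and 48 h. It had 54.9, 63.4 and 40.2 CPM in MMP14-KO droplets, against 55.1, 46.7 and 30.0 CPM in Wildtype droplets. At 24 h FHL1 had 63.2, 59.2 and 62.0 CPM in MMP14-KO and 37.7, 35.6 and 38.8 CPM in Wildtype spheroids, and at 48 h 51.0, 56.8 and 52.2 CPM in MMP14-KO and 38.05, 38.5 and 32.5 CPM in Wildtype spheroids. Droplet libraries overlapped between the genotypes, those at 24 h did not overlap and those at 48 h did not overlap. The 48 h call for FHL1 was lost without any of the 6 libraries (adjusted p 0.069 to 0.145, edgeR).

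TGFB1I1, the paxillin relative Hic-5, was lower in droplets, with 39.96, 38.6 and 38.1 CPM in MMP14-KO and 50.2, 47.7 and 44.8 CPM in Wildtype spheroids, a log2 fold change of -0.29 with no overlap. In collagen it was not called, with 40.9 ± 2.15 CPM in MMP14-KO and 43.7 ± 2.20 CPM in Wildtype spheroids at 24 h and 46.4 ± 3.64 CPM in MMP14-KO and 45.4 ± 1.32 CPM in Wildtype spheroids at 48 h (SD, n = 3 each). FHL2 was not called in droplets, at -0.09, and was lower in MMP14-KO at 24 h at -0.43 and at 48 h at -0.37. ACTA2 was lower in collagen, at -0.72 at 24 h and -0.85 at 48 h, and its 24 h call was lost without MMP14-KO 24 h replicate 2 or 3 or Wildtype 24 h replicate 1 or 3 (adjusted p 0.0714 to 0.122, edgeR). FAS, which shares exon sequence with ACTA2 on the opposite strand, was not called between genotypes at 24 h and was lower in MMP14-KO at 48 h (log2 fold change -0.46, adjusted p 0.017, edgeR), and its part in the ACTA2 difference was not tested. Of the calls between genotypes 6 of 13 in droplets (CNN2, FLNC, MYH9, MYL9, MYLK and TGFB1I1), 16 of 20 at 24 h and 18 of 21 at 48 h stood without each library in turn and in the 7 other settings. ACTN1 and FLNA were among the droplet calls lost, ACTN1 without MMP14-KO droplet replicate 1 or 3 or Wildtype droplet replicate 1 (adjusted p 0.0682 to 0.118) and FLNA without those or Wildtype droplet replicate 2 (adjusted p 0.0956 to 0.227). The other droplet calls lost were CALD1, a caldesmon, and PDLIM7, each without MMP14-KO droplet replicate 1 or 2 or any Wildtype droplet library (adjusted p 0.0529 to 0.171).

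The third comparison asks whether the response to collagen differed between the genotypes, as the log2 fold change over droplets in MMP14-KO minus that in Wildtype spheroids. For nearly all of the 38 genes no such difference was called. At 24 h 1 gene was lower and none higher, where 7.41% of all genes were called (3.32% higher and 4.09% lower), and at 48 h 1 was higher and none lower, where 6.79% of all genes were called (4% higher and 2.78% lower). At an unadjusted p under 0.05 there were 12 genes of the 38 at each time, where 23.6% of all genes at 24 h and 24.2% at 48 h were under it. Higher calls made up 44.8% of all calls at 24 h and 59% at 48 h, or 59% and 73.9% with scaling by total size alone, and 48.2% at 48 h with DESeq2's Wald test. FHL2 rose less in MMP14-KO at 24 h, at 1.36-fold against 1.73-fold in Wildtype spheroids, a difference of -0.34 ± 0.0921 on the log2 scale (SE, adjusted p 0.0281, edgeR). TGFB1I1 had a log2 fold change at 48 h of 0.26 in MMP14-KO and -0.07 in Wildtype spheroids, a difference of 0.32 ± 0.0907 (SE, adjusted p 0.0365, edgeR). Neither call held without each library, since FHL2 was lost without MMP14-KO droplet replicate 1 or 24 h replicate 2, or Wildtype droplet replicate 1 or 2 or 24 h replicate 2 or 3 (adjusted p 0.0505 to 0.0938), and TGFB1I1 was lost without 9 of the 12 libraries, all but MMP14-KO 48 h replicate 2, Wildtype droplet replicate 3 and Wildtype 48 h replicate 1 (adjusted p 0.0559 to 0.116). The count over the 38 genes was 4 at 24 h without Wildtype 24 h replicate 1 and 6 at 48 h without Wildtype droplet replicate 3. For FLNC, the gene with the largest response, the difference was 0.07 ± 0.117 at 24 h and was not called.

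Other genes of the pathway were taken from 3 lists of actin regulators and SRF targets that hold none of the 40 genes. Of 28 genes of actin turnover and branching, 8 were higher and 8 lower at 24 h in MMP14-KO spheroids, and 9 and 9 in Wildtype spheroids. The shares called, 57.1% in MMP14-KO and 64.3% in Wildtype spheroids, were near the 51.1% and 56.5% of all genes, which were also evenly divided in direction. GSN, the severing protein gelsolin, fell at 24 h by 0.48 in MMP14-KO and by 1.04 in Wildtype spheroids on the log2 scale, and the responses differed by 0.56 ± 0.105 (SE, adjusted p 0.00524, edgeR). CAP2, which recycles actin monomers, rose by 1.61-fold in MMP14-KO and 1.75-fold in Wildtype spheroids. PFN2, the second profilin gene, was higher in MMP14-KO than in Wildtype at all stages, at 0.54, 0.42 and 0.35, while PFN1 was lower at -0.33 and -0.24 in collagen. CAP2 was lower in MMP14-KO at all stages, at -0.28, -0.39 and -0.45. Over the 28 genes, 1 was higher and 6 lower in MMP14-KO in droplets, 2 and 5 at 24 h, and 4 and 11 at 48 h. The shares called were 25%, 25% and 53.6%, against 17.4%, 29.4% and 29.5% of all genes.

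Of 29 further contractile and MRTF-SRF target genes, 27 were tested, and 14 were higher and 4 lower at 24 h in MMP14-KO, against 14 higher and 3 lower in Wildtype spheroids (66.7% and 63% called, against 51.1% and 56.5% of all genes). CCN1 and CCN2, secreted matricellular proteins that both MRTF-SRF and YAP can activate, rose most. CCN1 averaged 146 ± 11.2, 1311 ± 122 and 1158 ± 147 CPM in MMP14-KO spheroids and 153 ± 18.01, 1682 ± 83.2 and 1657 ± 216 CPM in Wildtype spheroids in droplets, at 24 h and at 48 h (SD, n = 3 each). CCN2 averaged 118 ± 3.06, 659 ± 69.2 and 535 ± 51.4 CPM in MMP14-KO spheroids and 85.0 ± 2.43, 881 ± 52.5 and 719.9 ± 69.9 CPM in Wildtype spheroids. Its response was smaller in MMP14-KO, by -0.89 ± 0.112 at 24 h on the log2 scale, with MMP14-KO higher in droplets and lower in collagen. NEXN, an actin-binding protein of the Z-disc and stress fibres, averaged 6.74 ± 0.681, 20.4 ± 2.31 and 23.8 ± 1.22 CPM in MMP14-KO spheroids and 10.8 ± 1.77, 30.4 ± 3.47 and 36.7 ± 3.58 CPM in Wildtype spheroids. It thus rose in collagen in both genotypes and was lower in MMP14-KO at each stage, as was FLNC. In this list 3 genes were higher and 5 lower in MMP14-KO in droplets, 2 and 12 at 24 h, and 3 and 13 at 48 h, which is 29.6%, 51.9% and 59.3% of those tested, against 17.4%, 29.4% and 29.5% of all genes.

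The 12 immediate-early genes that SRF controls through TCFs followed another course. At 24 h 9 were higher in MMP14-KO and 10 in Wildtype spheroids, and none was lower, where 25.5% and 27.8% of all genes were higher. Between 24 h and 48 h none was higher and 9 were lower in MMP14-KO and 11 in Wildtype spheroids, where 1.73% and 6.88% of all genes were lower. The medians were -1.08 in MMP14-KO and -1.48 in Wildtype spheroids, against 0.05 and 0.03 over the 38 actin and MRTF-SRF genes. FOS averaged 8.44 ± 0.833, 846 ± 89.3 and 439 ± 46.1 CPM in MMP14-KO spheroids over the 3 stages and 6.46 ± 0.996, 929 ± 95.3 and 480.2 ± 36.2 CPM in Wildtype spheroids. EGR1 averaged 24.6 ± 0.623, 365 ± 55.2 and 152 ± 28.1 CPM in MMP14-KO spheroids and 24.7 ± 1.44, 439 ± 32.2 and 144 ± 7.35 CPM in Wildtype spheroids. Both were far higher in collagen than in droplets. FOS, EGR1 and their relatives can be switched on within minutes by tissue handling, collagen spheroids were digested at 37 °C and droplet spheroids were not, and the part of that step in any collagen result here was not tested. Between genotypes 4 of the 12 were higher in MMP14-KO in droplets, 2 at 24 h and 4 at 48 h and none was lower, or 33.3%, 16.7% and 33.3% called against 17.4%, 29.4% and 29.5% of all genes. The list's median log2 fold change of MMP14-KO over Wildtype was 0.32 in droplets, -0.08 at 24 h and 0.23 at 48 h.

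Of 9 smooth-muscle markers 3 had enough reads to be tested, and the summed level of all 9 was 40.4 to 43.2 CPM in MMP14-KO droplets, 45.1 to 46.7 CPM at 24 h and 59.1 to 63.2 CPM at 48 h, and 39.7 to 44.4, 55.8 to 65.6 and 67.8 to 77.0 CPM in Wildtype spheroids, nearly all of it SMTN, a smoothelin that non-muscle cells also express. Of 8 fibroblast markers 6 were tested and none was at 0 in all libraries, and the summed level of all 8 was 34.0 to 40.4, 56.4 to 59.7 and 44.6 to 54.6 CPM in MMP14-KO spheroids, and 47.2 to 59.5, 43.7 to 52.5 and 37.4 to 38.6 CPM in Wildtype spheroids. The smooth-muscle sum was higher in collagen than in droplets in both genotypes, as TAGLN and FLNC were, but it was higher again at 48 h than at 24 h, where TAGLN fell. Its part in those results was not tested.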

How the data were processed

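Paired-end reads had been trimmed, aligned to GRCh38 and counted before deposition, with cutadapt 2.3, STAR 2.7.8a and RSEM 1.3.3 named in the submitters' processing notes, together with FastQC 0.11.8, MultiQC 1.7 and DESeq2 1.42.0. Neither the annotation release nor the strand setting is named there. The deposited table holds whole-number expected counts per gene, estimated by the authors with RSEM and used as deposited. It has 62714 rows, of which 4 reporter rows without counts were left out.

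Counts were scaled by TMM and tested in edgeR 4.0.16 (R 4.3.3, limma 3.58.1) with glmQLFit (robust) and glmQLFTest, with 1 coefficient per group over all 18 libraries. Genes needed to pass filterByExpr at a minimum count of 10, which left 17030. A gene was called at a Benjamini-Hochberg adjusted p under 0.05 over all genes of a comparison. CPM use TMM-scaled library sizes, and "held" means called in every alternative given in the closing section. Per-kilobase levels divide CPM by the union of GENCODE 29 exons. The scripts were tested on simulated data.

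The 40 genes and all lists were chosen with earlier results of these data known, so none is independent support. Library values are printed for SRF, MRTFA, MRTFB and the 6 called genes with the largest change in each comparison, if their higher group averaged 5 CPM or more, with paralogues beside them. Up to 4 such genes could be named per list of other pathway genes and comparison. The antisense partners PCSK7, FAS and TPM1-AS were chosen after their values were seen.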

Additional observations from a re-analysis of the deposited data

Results flagged for a closer look

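Genotype effects that differed between stages were found for FHL2 and TGFB1I1. FHL2 was raised less by collagen at 24 h in MMP14-KO than in Wildtype spheroids, by -0.34 on the log2 scale (adjusted p 0.0281, edgeR's quasi-likelihood test of the difference). Without each of the 12 libraries in turn this difference was between -0.40 and -0.29 and was called in 6 of 12 (adjusted p 0.00613 to 0.0938), and it was called in all 7 other settings (adjusted p 0.00873 to 0.0442). TGFB1I1 differed by 0.321 at 48 h (adjusted p 0.0365, edgeR). Without each library in turn that difference was between 0.27 and 0.36 and was called in 3 of 12 (adjusted p 0.0201 to 0.116), and in 6 of 7 other settings (adjusted p 0.0163 to 0.0519). Groups of 3 were too small for a check of single outlying samples.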

How the results depend on the processing

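No called gene of the 38 reversed its direction under DESeq2's size factors, library size alone, no filter on low counts, a mean of at least 1 CPM, only the groups compared, DESeq2's Wald test, a replicate block, or without any library in turn. With all libraries, counts of called genes moved by over 1.5 times only where the main count was 1 or 2. Without MMP14-KO droplet replicate 1 or Wildtype droplet replicate 1 the 13 genotype calls in droplets became 7, and without Wildtype replicate 2 of 24 h or 48 h the 7 second-day calls became 3 or 4. Between 24 h and 48 h in MMP14-KO spheroids the 2 calls became 1 with DESeq2 size factors, library size alone, no filter or only the groups compared, and 4 with the Wald test. The 1 call for a different collagen response at 24 h became 3 with library size alone, 4 with no filter, 3 at a mean of at least 1 CPM, 3 with only the groups compared and 5 with the Wald test, and that at 48 h became 2, 4, 2, 0 and 5 under the same 5 settings. The cause was not tested. Without each library in turn, counts of calls ranged from 7 to 11 between genotypes in droplets, 1 to 3 between 48 h and 24 h in MMP14-KO, 3 to 7 in Wildtype spheroids, 0 to 4 for the different response at 24 h and 0 to 6 at 48 h. Replicate numbers did not pair the libraries: deviations of 45 same-numbered pairs correlated at -0.07 to 0.14, against -0.14 to 0.11 for 90 others, and the replicate block left 452 of 456 calls and non-calls as they were and gained 4. TAGLN and ACTA2, with the fewest reads of the genes tested, are the most exposed to counting error.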
